A study of Homo sapiens with 6 samples.

Results

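The genes described here are members of 7 families that lie in the human genome as repeated copies: USP17L, FAM90A, PRAMEF, NBPF, GOLGA6L, GOLGA8 and DUX4. They were chosen by symbol from the RefSeq gene table of GRCh38.p14, which gave 109 of 19970 protein-coding genes on chromosomes 1 to 22 and X. USP17L had 25 members, 19 on chromosome 4 and 6 on chromosome 8. FAM90A had 21, of which 19 were on chromosome 8, 1 on chromosome 4 and 1 on chromosome 12. PRAMEF had 23 and NBPF 14, all on chromosome 1. GOLGA6L had 11 and GOLGA8 14, all on chromosome 15, and DUX4 had 1, near the end of chromosome 4. A gene's window is its span extended by 2000 bp on both sides, and a peak or region counts for a gene when it touches that window by at least 1 bp. The median window was 9243 bp for the members and 28190 bp for all protein-coding genes. The families were picked with the peak lists and differential tables of these samples in view, so counts and values from them are descriptions and carry no test.

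The samples came from D283, an established cell line of Group 3 medulloblastoma, cultured as tumorspheres. OTX2low cells had received siRNA against the transcription factor OTX2, and OTX2high cells had received a scramble siRNA. H3K4me3 and H3K27me3 were each profiled by ChIP-seq in 1 library per condition, so no value below has a replicate check. The 2 IgG libraries carry titles and silencing labels that name opposite conditions and were assigned to no group. Each H3K27me3 peak list carries a sample label for one condition and a header for the other. These lists are called by their sample label. H3K27me3 directions follow the condition names of the authors' differential table, so the opposite directions would hold under the sample labels. The list labelled OTX2high had an IgG control of 55079542 tags, as the H3K4me3 OTX2low list had. The list labelled OTX2low had one of 85840108 tags, as the H3K4me3 OTX2high list had. By control size the headers, not the sample labels, match the H3K4me3 lists. Which name is right was not tested. After filtering, the lists rested on 33137731 tags (H3K4me3, OTX2high), 20914582 (H3K4me3, OTX2low), 40271458 (H3K27me3, labelled OTX2high) and 33885628 (H3K27me3, labelled OTX2low).

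As background, USP17L genes encode deubiquitinases and make up an array of near-identical units. FAM90A genes multiplied in primates and their products are little studied. PRAMEF genes are relatives of PRAME, a leucine-rich-repeat protein expressed in testis and many tumours. NBPF genes encode proteins built from Olduvai domains and expanded in number along the human lineage. GOLGA6L and GOLGA8 genes encode golgin-like coiled-coil proteins and lie in the segmental duplications of chromosome 15. DUX4 encodes a double homeobox transcription factor of the early embryo and is part of a macrosatellite repeat that is normally silenced in adult tissue. H3K4me3 marks active and poised promoters, usually at CpG islands, and H3K27me3 is deposited by Polycomb complexes. In such families a short read can match several copies equally well. Which copy a read came from is therefore uncertain, and values are best read for the family or array rather than for 1 copy.

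How far the members' promoters repeat each other can be read from RefSeq's promoter windows of 300 bp. Of the 109 members, 55 had at least 1 such window, and they had 59 windows in all. There was none for USP17L and FAM90A members. The tags behind the peak lists were 65 to 74 bases long per the file headers, so 70 bases was used as the length of comparison. For the median member window, 54.5% of its stretches of 70 bases stood at more than 1 genome position among RefSeq's promoter windows. Among all 22155 protein-coding windows, 97.1% shared no such stretch. For GOLGA8 the median was 77.7%, for GOLGA6L 69.7%, for NBPF 54.1% and for PRAMEF 46.3%. The DUX4 and GOLGA8B windows shared none. Only promoter windows were compared, and GOLGA8A had no window, so this does not make these sequences unique in the genome.

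H3K4me3 peaks divided the families into those with strong peaks, those with weak peaks and those with none. In the OTX2high list 19 members had a peak (75% of all protein-coding genes did), and in the OTX2low list 31 did (73.7% of all). Peaks of at least 10-fold enrichment over the local background, the authors' own value for each peak, stood at 12 members in the OTX2high list (70.3% of all genes) and at 11 in the OTX2low list (69% of all). All of these were NBPF or GOLGA8 genes. In NBPF, 10 of 14 members had a peak in the OTX2high list, with a median highest fold of 49.7 against 44.9 over all genes with a peak. In the OTX2low list 9 of 14 had one, with a median of 44.5 against 35.4. NBPF11 had the highest in OTX2high at 60.8-fold and had 50.0-fold in the OTX2low list. NBPF12 followed with 59.1-fold and had the highest of the OTX2low list at 51.7-fold. The other NBPF genes with a peak in both lists were NBPF1, NBPF3, NBPF8, NBPF9, NBPF15, NBPF20 and NBPF26. NBPF4, NBPF6, NBPF10 and NBPF19 had no H3K4me3 peak in either list. NBPF14 had a peak of 15.2-fold in the OTX2high list only, at chr1:148528168-148529553 and beyond the end of the gene that lies away from its annotated starts.

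**Figure D1:**
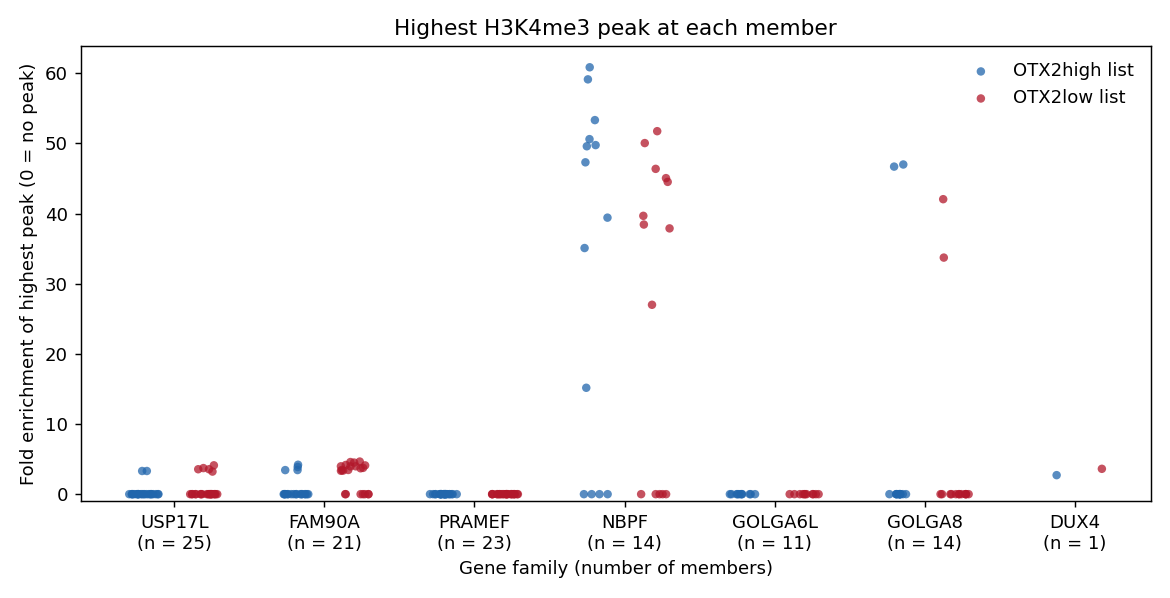
Fold enrichment of the highest H3K4me3 peak at each of the 109 members, by family, with 0 for a member without a peak; each point is 1 gene in 1 peak list. NBPF members and 2 GOLGA8 genes reach 15.2-fold or more, and points of the other families stay at or below 4.65-fold.

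In GOLGA8, 2 of 14 members had an H3K4me3 peak, and both had it in both lists. GOLGA8A had 47.0-fold in the OTX2high list and 33.7-fold in the OTX2low list. GOLGA8B had 46.7-fold and 42.0-fold. These are the most distal GOLGA8 genes on chromosome 15, and the other 12 copies had none. No PRAMEF and no GOLGA6L gene had an H3K4me3 peak in either list.

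NBPF20, NBPF26 and GOLGA8A also had strong H3K4me3 peaks in both lists, but they had no promoter window and were not examined for start position or CpG. The annotated start lay inside the highest H3K4me3 peak of both lists at NBPF1, NBPF3, NBPF8, NBPF9, NBPF11, NBPF12, NBPF15 and GOLGA8B. CpG content was higher in these promoters than in the windows of NBPF, GOLGA8, GOLGA6L and PRAMEF members without a peak. The ratio of observed to expected CpG over 300 bp had a median of 0.738 for all protein-coding windows and 0.293 for the members' windows. It was 0.700 for the 10 NBPF windows of members with a peak and 0.158 for the 4 of members without one. These groups overlap through NBPF14, whose windows (0.234 and 0.245) lie away from its peak: the highest window without a peak was NBPF10 at 0.247, and the lowest of the others with a peak was NBPF8 at 0.643. At GOLGA8B it was 1.05, against a median of 0.286 for the 13 windows of GOLGA8 members without a peak, whose highest was 0.324. For PRAMEF the median was 0.180 and the highest 0.397, and for GOLGA6L they were 0.359 and 0.476. The share of shared sequence did not divide NBPF in the same way, with a median of 54.1% in both of its groups.

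The upstream 250 bases of 7 promoters are printed from RefSeq (GRCh38.p14), 5′ to 3′ on the gene's strand, with each CpG in capitals. NBPF12, NBPF11 and GOLGA8B had strong H3K4me3 peaks, GOLGA8S, GOLGA6L6 and PRAMEF12 had none, and DUX4 had weak ones. GOLGA8S was added as an unmarked copy after the values were seen.
NBPF12, chr1:146938074-146938323, plus strand: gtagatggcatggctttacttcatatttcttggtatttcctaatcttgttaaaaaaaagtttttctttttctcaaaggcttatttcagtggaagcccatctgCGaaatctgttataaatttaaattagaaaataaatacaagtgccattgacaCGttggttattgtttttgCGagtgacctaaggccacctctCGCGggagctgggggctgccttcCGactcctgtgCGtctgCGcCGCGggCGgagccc
NBPF11, chr1:148152282-148152531, minus strand: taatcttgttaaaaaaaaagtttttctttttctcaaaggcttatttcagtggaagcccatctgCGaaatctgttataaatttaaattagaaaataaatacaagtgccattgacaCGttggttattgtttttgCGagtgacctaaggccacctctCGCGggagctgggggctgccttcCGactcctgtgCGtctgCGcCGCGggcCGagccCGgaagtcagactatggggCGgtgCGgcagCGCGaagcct
GOLGA8B, chr15:34583652-34583901, minus strand: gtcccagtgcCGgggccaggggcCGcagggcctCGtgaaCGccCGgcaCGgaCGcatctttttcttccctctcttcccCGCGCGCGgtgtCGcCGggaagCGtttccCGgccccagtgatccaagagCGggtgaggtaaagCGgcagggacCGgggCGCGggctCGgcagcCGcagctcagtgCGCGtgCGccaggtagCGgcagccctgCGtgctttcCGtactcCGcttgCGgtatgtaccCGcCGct
GOLGA8S, chr15:23354498-23354747, plus strand: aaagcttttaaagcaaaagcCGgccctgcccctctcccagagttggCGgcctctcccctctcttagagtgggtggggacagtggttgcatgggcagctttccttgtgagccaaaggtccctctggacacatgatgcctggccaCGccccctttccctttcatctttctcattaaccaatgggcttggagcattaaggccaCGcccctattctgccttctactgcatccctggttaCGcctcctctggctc
GOLGA6L6, chr15:20541801-20542050, minus strand: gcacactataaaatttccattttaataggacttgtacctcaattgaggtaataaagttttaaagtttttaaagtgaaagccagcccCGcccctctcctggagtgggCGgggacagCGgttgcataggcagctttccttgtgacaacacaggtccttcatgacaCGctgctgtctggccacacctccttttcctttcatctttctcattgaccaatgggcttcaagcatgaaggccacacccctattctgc
PRAMEF12, chr1:12773488-12773737, plus strand: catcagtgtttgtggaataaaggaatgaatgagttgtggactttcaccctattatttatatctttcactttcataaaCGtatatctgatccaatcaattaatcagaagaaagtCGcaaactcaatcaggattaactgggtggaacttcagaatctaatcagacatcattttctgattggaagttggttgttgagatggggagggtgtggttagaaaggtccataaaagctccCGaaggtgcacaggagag
DUX4, chr4:190173524-190173773, plus strand: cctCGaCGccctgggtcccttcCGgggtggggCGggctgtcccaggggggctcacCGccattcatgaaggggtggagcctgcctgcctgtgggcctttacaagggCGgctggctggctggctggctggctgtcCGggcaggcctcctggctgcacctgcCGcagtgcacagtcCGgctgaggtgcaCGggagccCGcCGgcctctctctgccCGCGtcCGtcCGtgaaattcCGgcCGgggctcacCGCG
The upstream sequence held 11 CpG in NBPF12 and 16 in NBPF11, and these promoters share an exact run of 193 bases. GOLGA8B held 32 CpG and GOLGA8S 5, and their longest shared run was 9 bases. There were 4 CpG in GOLGA6L6, 3 in PRAMEF12 and 20 in DUX4.

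The weak H3K4me3 peaks lay in USP17L, FAM90A and DUX4. USP17L had a peak at 2 of 25 members in the OTX2high list and at 5 in the OTX2low list. In the OTX2high list 1 peak of 3.30-fold touched both USP17L25 and USP17L26. In the OTX2low list the peaks were at USP17L11, USP17L12, USP17L24, USP17L28 and USP17L30, with a highest fold of 4.11 at USP17L30. FAM90A had a peak at 4 of 21 members in the OTX2high list (FAM90A12, FAM90A22, FAM90A23 and FAM90A24) and at 14 in the OTX2low list. FAM90A24 had the highest in both, with 4.19-fold and 4.65-fold. The median length of these peaks in the OTX2low list was 203.5 bp for USP17L and 228 bp for FAM90A, against 1044 bp for the whole list. The OTX2low list rests on fewer tags than the OTX2high list and on a smaller IgG control (55079542 against 85840108 tags). The part of this depth in the larger number of weak peaks was not tested.

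DUX4 had 7 H3K4me3 peaks in each list, with a highest fold of 2.71 in OTX2high and 3.61 in OTX2low. Their median pileup, the number of overlapping fragments at the summit, was 109 and 112, against 44 and 42 for the whole lists. Many reads thus lay over DUX4 in the ChIP and the background alike. In the larger differential H3K4me3 region at DUX4, the IgG level implied by the authors' enrichment was 134 normalized reads per kb in OTX2high and 191 in OTX2low. The median over the H3K4me3 regions with reads in both ChIP and IgG was 8.42 and 8.38.

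H3K27me3 was found at nearly all of these genes. A peak touched 103 of 109 members in the list labelled OTX2high (25.8% of all protein-coding genes). The other list, labelled OTX2low, had peaks at 96 (17.7% of all). Peaks of at least 10-fold enrichment stood at 7 members (2.8% of all genes) under the label OTX2high and at 26 (0.651% of all) under the label OTX2low, and all but PRAMEF7 were USP17L or FAM90A genes. The share of a window covered by peaks differed more between families than the number of genes with a peak. It had a median of 0% over all protein-coding genes in both lists. The 2 lists differ in estimated fragment length (169 bp labelled OTX2high, 78 bp labelled OTX2low), so coverage is compared within a list.

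**Figure D2:**
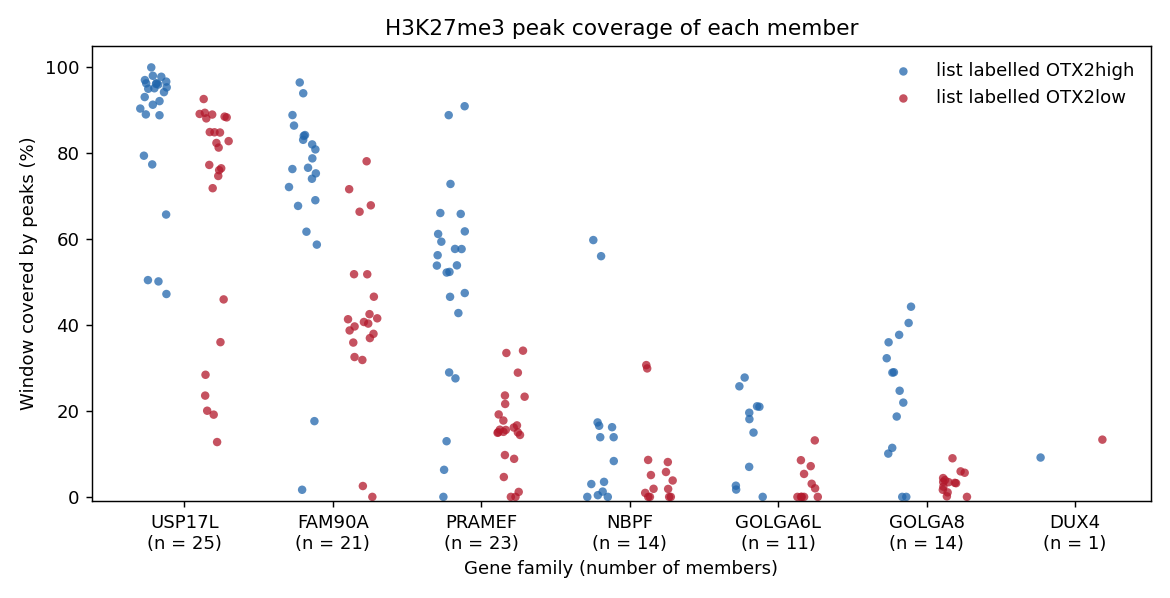
Percent of each member's window covered by H3K27me3 peaks, by family; each point is 1 gene in 1 list, named by sample label. USP17L lies highest in both lists, and NBPF, GOLGA6L and GOLGA8 lie lower, with 2 NBPF genes apart from the rest.

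By share of the window covered, USP17L ranked highest for H3K27me3. Its windows were also the shortest, with a median of 5593 bp against 7011 bp for FAM90A and 57008 bp for NBPF. On chromosome 4 they are longer than the spacing of the copies, so neighbours share peaks. The 19 copies there rest on 38 distinct peaks in the list labelled OTX2high. Peaks touched all 25 members in both lists and covered a median of 94.2% of the window (labelled OTX2high) and 81.3% (labelled OTX2low). The 19 copies on chromosome 4 had medians of 95.4% and 84.8%, and the 6 on chromosome 8 had 71.6% and 21.8%. The highest peaks were 11.9-fold at USP17L30 (labelled OTX2high) and 18.5-fold at USP17L11 (labelled OTX2low). FAM90A followed with medians of 76.6% and 40.7%. Its 2 copies outside chromosome 8 stood apart: FAM90A1 had 17.6% and 2.53%, and FAM90A26 had 1.66% and 0%. The highest FAM90A peaks were 10.3-fold at FAM90A14 (labelled OTX2high) and 16.3-fold at FAM90A12 (labelled OTX2low).

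The chromosome 4 array let the mark be laid out by position, since its 19 copies have a median length of 1593 bp and a median spacing of 4747 bp. Both lists showed the same gap in peak coverage, 401 to 500 bp below the lower coordinate of the gene. In that bin of 100 bp a mean of 20.3% was covered in the list labelled OTX2high, where 8 of 19 copies had any peak. In the list labelled OTX2low it was 7.32%, with 3 of 19 copies. The bins on both sides had 54.4% and 61.7% in the former list and 40.1% and 38.5% in the latter. All other bins had 78% or more (labelled OTX2high) and 45.5% or more (labelled OTX2low). The copies share their sequence and possibly their reads, so they are not 19 independent observations, and whether reads can be placed at the gap was not tested.

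**Figure D3:**
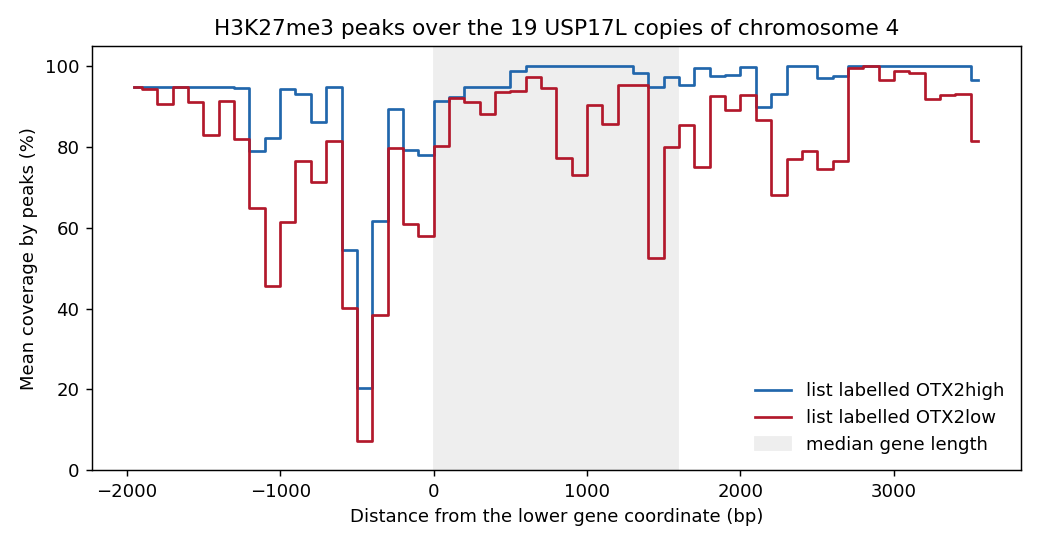
Mean percent of each 100 bp bin covered by H3K27me3 peaks over the 19 USP17L copies of chromosome 4, against the distance in bp from the lower gene coordinate, for the 2 lists named by sample label. Both lines drop between 600 and 301 bp below the gene, to 20.3% and 7.32%.

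PRAMEF genes carried H3K27me3 and no H3K4me3 peak. Peaks touched 22 of 23 members (labelled OTX2high) and 21 (labelled OTX2low), with a median coverage of 53.9% and 15.6%. PRAMEF7 had the most, 91.0% and 34.0%, and the highest peak of the list labelled OTX2high, at 10.2-fold. PRAMEF1 had the highest of the list labelled OTX2low, at 8.09-fold. PRAMEF20 had no peak in either list, and PRAMEF22, which lies apart from the other copies near the end of chromosome 1, had 13.0% and 0%.

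In GOLGA8 the H3K27me3 lay on the copies without H3K4me3, while NBPF genes could carry both marks. GOLGA8B had no H3K27me3 peak and GOLGA8A had none under the label OTX2high and 0.124% covered under the label OTX2low. The 12 GOLGA8 copies without H3K4me3 were covered to between 10.1% (GOLGA8S) and 44.3% (GOLGA8J) in the list labelled OTX2high. The family's highest peaks were 5.96-fold at GOLGA8O (labelled OTX2high) and 6.06-fold at GOLGA8M (labelled OTX2low). Within NBPF, NBPF10 had 59.8% and 29.9% covered and NBPF14 had 56.0% and 30.7%, while the other 12 did not exceed 17.3% and 8.60%. NBPF4 and NBPF6 had neither mark. All 10 NBPF genes with an H3K4me3 peak in the OTX2high list also had an H3K27me3 peak somewhere in their window in the list labelled OTX2high. At 3 of the 10 an H3K27me3 peak of that list directly overlapped the highest H3K4me3 peak: NBPF14, NBPF15 and NBPF26. With the H3K27me3 list labelled OTX2low it was also 3: NBPF8, NBPF14 and NBPF26. Which of these H3K27me3 lists shares the condition of the H3K4me3 list depends on the disputed names. NBPF20 had the family's highest H3K27me3 peak of the list labelled OTX2high, 8.07-fold at chr1:145427331-145429364, beside its H3K4me3 peak at chr1:145423926-145426273. The weak H3K4me3 peaks of USP17L and FAM90A in the OTX2high list, at 2 and 4 members, were overlapped by H3K27me3 peaks at every one of those members in both H3K27me3 lists. H3K27me3 peaks covered these members' windows to 84.1% (FAM90A24) or more under the label OTX2high and 66.4% (FAM90A12) or more under the label OTX2low. Overlap was thus likely wherever the H3K4me3 peak fell. NBPF11 had the highest NBPF peak of the list labelled OTX2low, at 9.10-fold. GOLGA6L was covered to a median of 18.1% and 1.99%, with the highest peaks at GOLGA6L2 (7.13-fold, labelled OTX2high) and GOLGA6L22 (7.58-fold, labelled OTX2low). DUX4 had 9.16% and 13.3%, with folds of 1.81 and 4.78.

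Between conditions, nearly every H3K27me3 region at these genes was higher in OTX2high on the deposited scale, while recentring all ratios on the table's median turned the members' median log2 to -0.11. In the authors' differential table, 49 members had only regions higher in OTX2high (3.36% of all protein-coding genes), none had only regions higher in OTX2low (7.1% of all), and NBPF20 alone had both (0.255% of all). No region touched the other 59. The 49 were all 19 USP17L copies of chromosome 4, 16 FAM90A, 8 NBPF, 2 PRAMEF and 2 GOLGA6L genes, GOLGA8G and DUX4. Because neighbouring copies share a region, these members rest on 29 distinct regions, and 28 of them had this direction. Their median log2 (OTX2high over OTX2low) was 0.37 by the authors' deposited table, against 0.48 for all 5401 regions there.

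The members' regions were marked by their direction at a given enrichment over IgG rather than by the size of the ratio. In the authors' deposited table, higher values in OTX2high made up 57.5% of all H3K27me3 regions. Among the 1647 regions of at least 4-fold enrichment over IgG in 1 or both conditions, 18 were higher in OTX2high (1.09%), and 14 of these touched members. In the authors' deposited table the other 4 touched CDH13, NPTXR, LPA and PDZD4. Among the 1111 regions of at least 4-fold enrichment in both conditions, 9 were higher in OTX2high (0.81%), and all 9 touched members. These shares hold for the deposited scale and condition names. After recentring on the table's median, 2 of the 1647 regions were higher in OTX2high and none of them touched a member. That median was 0.48 over called regions of any enrichment, while the 1647 regions had a median log2 of -0.35. Recentring lowers every ratio among them, and most were already below 0. The table holds only called regions, so its median need not mark no change. With the sample labels 1629 of the 1647 were higher in OTX2high, 1 of them at a member, and 1102 of the 1111, with 0 at members. The direction was also used in choosing the families, so this describes the table and tests nothing.

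**Figure D4:**
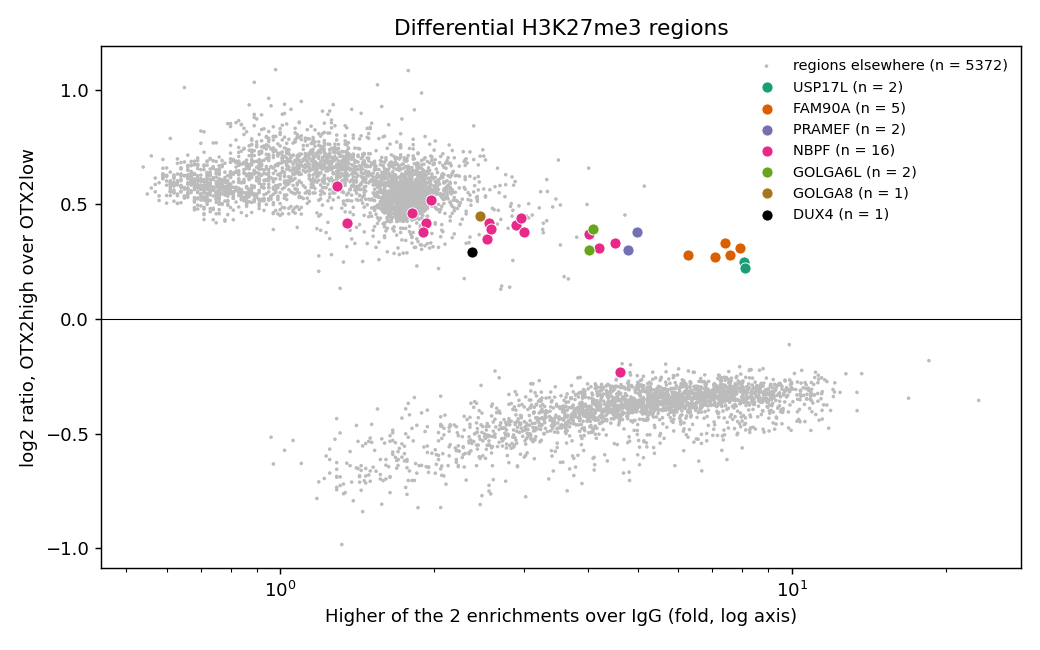
Differential H3K27me3 regions of the authors' table: log2 ratio of OTX2high over OTX2low against the higher of the 2 enrichments over IgG (log axis), with the 29 regions at members coloured by family. Above 4-fold, grey regions lie almost all below 0, while 14 of the 15 member regions lie above it on the deposited scale; recentred on the table's median, the 29 have a median of -0.11.

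The USP17L array was covered by 2 of these regions. At chr4:9209001-9281000, over 11 USP17L genes from USP17L10 to USP17L22, the authors' deposited table lists 11168 normalized reads for OTX2high against 9382 for OTX2low. There the authors' deposited table puts log2 at 0.25 and enrichment over IgG at 8.06-fold (OTX2high) and 6.74-fold (OTX2low). At chr4:9318001-9375000, over 8 genes from USP17L24 to USP17L30, the authors' deposited table lists 9047 and 7774 normalized reads, log2 0.22 and enrichments of 8.09-fold and 6.83-fold. From the numbers of reads recovered by dividing out the normalization, the intervals of 95% for these log2 ratios were 0.21 to 0.29 and 0.18 to 0.26. Such intervals cover counting error only and say nothing of the spread between libraries. Per kb the array regions held 155 and 159 normalized reads in OTX2high, against a median of 48.5 over all regions of at least 4-fold enrichment. No region touched the 6 USP17L copies on chromosome 8.

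FAM90A had 5 regions on chromosome 8 with log2 ratios from 0.27 to 0.33 in the authors' deposited table. For the one with the most reads, over FAM90A7, FAM90A22 and FAM90A23, the authors' deposited table lists 4564 normalized reads for OTX2high against 3790 for OTX2low, with enrichments of 7.09-fold and 5.41-fold. PRAMEF had 2, at PRAMEF11 (646 against 497 normalized reads, log2 0.38) and PRAMEF5 (699 against 566, log2 0.30) in the authors' deposited table. The remaining 21 PRAMEF genes had none, although most carried peaks. GOLGA6L had 2, at GOLGA6L6 (log2 0.39) and GOLGA6L22 (log2 0.30), and GOLGA8 had 1, at GOLGA8G (log2 0.45), in the authors' deposited table. For the DUX4 region the authors' deposited table lists 2802 normalized reads for OTX2high against 2285 for OTX2low, log2 0.29, with enrichments of 2.37-fold and 1.49-fold.

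NBPF held 16 of the 29 regions, most of them within long genes and of low enrichment. For the region with the most reads, at NBPF20 (chr1:145286001-145368000), the authors' deposited table lists 4309 normalized reads for OTX2high against 3181 for OTX2low, log2 0.44. The largest ratio in the authors' deposited table was at NBPF11, log2 0.58, from 263 against 176 normalized reads. The only member region higher in OTX2low was also at NBPF20. It spans chr1:145422001-145439000, which holds the NBPF20 H3K4me3 peak, and the authors' deposited table lists 1000 normalized reads for OTX2high against 1176 for OTX2low, log2 -0.23. The regions at NBPF10 and NBPF14, the genes with the highest coverage, were higher in OTX2high with log2 between 0.31 and 0.37 in the authors' deposited table.

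For H3K4me3 the differential regions split by family. Regions higher in OTX2high were the only kind at 4 members (41.7% of all protein-coding genes), regions higher in OTX2low at 15 (6% of all), and both kinds at 2 (5.99% of all). The other 88 had none. These members rest on 24 distinct regions, of which 7 were higher in OTX2high and the other 17 in OTX2low, and in the authors' deposited table their median log2 was -1.58 against 0.61 over all 21714 regions. Read number divides them: of the 15 member regions with under 150 normalized reads over both conditions, 1 was higher in OTX2high and 14 in OTX2low, while 60.3% of all regions that small were higher in OTX2high. Of the 9 with at least 150 reads, 6 were higher in OTX2high, and their median log2 in the authors' deposited table was 0.42 against 0.55 for all regions of that size.

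**Figure D5:**
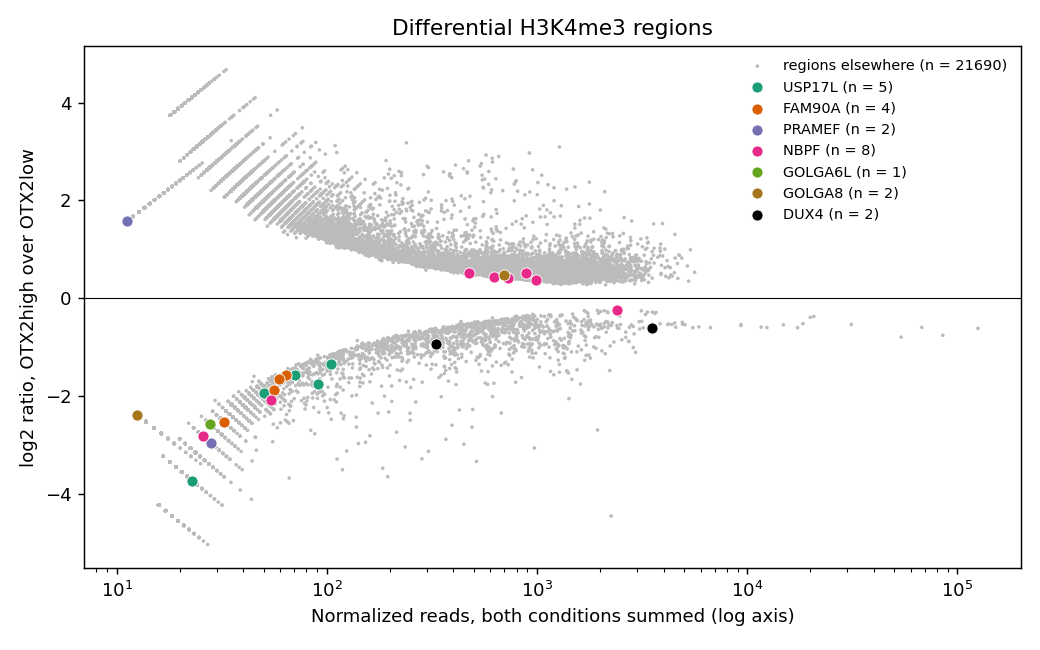
Differential H3K4me3 regions of the authors' table: log2 ratio of OTX2high over OTX2low against normalized reads summed over both conditions (log axis), with the 24 member regions coloured by family. Regions without reads in one condition are drawn at the bound set by 3 reads. USP17L and FAM90A regions lie at the low-read end below 0. NBPF regions of at least 150 reads lie mostly above 0 on the deposited scale. Recentred, only PRAMEF4 of the 109 members has solely regions higher in OTX2high.

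The H3K4me3 regions of NBPF and GOLGA8 with at least 150 reads went mostly with OTX2high on the deposited scale. Their positive log2 ratios, 0.38 to 0.52, lay below the table's median of 0.61, and recentring on it turned them below 0. Among the 109 members only PRAMEF4, with 14 reads against 0 and no H3K4me3 peak, then had solely regions higher in OTX2high. At NBPF8 (416 against 311 normalized reads) the authors' deposited table gives log2 0.42, and at NBPF12 (359 against 265) 0.44. NBPF26 had 2 regions, both at log2 0.52 in the authors' deposited table, and the first also touches NOTCH2NLR. The second lies outside the gene span and touches the window only through its extension. At GOLGA8B the authors' deposited table lists 408 normalized reads for OTX2high against 292 for OTX2low, log2 0.48. NBPF1 had regions of both directions side by side: 560 against 430 normalized reads (log2 0.38) at chr1:16611501-16612900 and 1102 against 1301 (log2 -0.24) at chr1:16612901-16614000 in the authors' deposited table. NBPF8 had a second region with few reads, 10.4 against 43.9 (log2 -2.08), and NBPF20 had 1 of 3.19 against 22.6 (log2 -2.82), in the authors' deposited table.

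The USP17L and FAM90A regions were small and all higher in OTX2low. USP17L had 5, with log2 ratios from -1.35 to -3.74 in the authors' deposited table. Values in the authors' deposited table were 29.5 (OTX2high) against 75.2 (OTX2low) normalized reads for the one with the most reads, at USP17L30. For the one with the largest ratio, at USP17L29, the authors' deposited table lists 1.60 against 21.3. The reads behind them were 37 against 60 and 2 against 17, which gave intervals of 95% of -1.98 to -0.73 and -6.90 to -1.66 for the log2 ratio. FAM90A had 4, from -1.58 to -2.53 in the authors' deposited table, with the largest at FAM90A9 (4.79 against 27.6 normalized reads). GOLGA6L25 (3.99 against 23.8, log2 -2.58) and PRAMEF33 (3.19 against 25.1, log2 -2.97) had 1 each in the authors' deposited table. At PRAMEF4, 14 reads in OTX2high stood against 0 in OTX2low, which is at least 2.97-fold higher in OTX2high against a floor of 3 reads in that library, and the bound of the 95% interval, which also counts the error of the 14 reads, was 2.11-fold. At GOLGA8K, 0 reads in OTX2high stood against 10 in OTX2low, at least 5.24-fold lower in OTX2high against the same floor, with an interval bound of 3.52-fold.

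DUX4 carried the largest member region of H3K4me3. At chr4:190176501-190182000 the authors' deposited table lists 1388 normalized reads for OTX2high against 2120 for OTX2low, log2 -0.61 and enrichments over IgG of 1.88-fold and 2.02-fold. At chr4:190173201-190175100, which holds the annotated start, the authors' deposited table lists 114 and 217 normalized reads, log2 -0.93 and enrichments of 4.76-fold and 5.26-fold. The intervals of 95% from the recovered reads were -0.71 to -0.51 and -1.26 to -0.60. The IgG level implied at these regions was also higher in OTX2low, at 191 against 134 and 21.7 against 12.6 normalized reads per kb, and the enrichments over IgG differed less between conditions than the reads. The part of this background in the H3K4me3 ratios was not tested. The H3K27me3 ratio of DUX4, positive on the deposited scale, lies below the table's median of 0.48. Of 21 genes known as DUX4 targets, 7 had an H3K4me3 peak in the OTX2high list (75% of all protein-coding genes) and 6 in the OTX2low list (73.7% of all). By H3K4me3, 6 of the 21 had only regions higher in OTX2high (41.7% of all) and 2 only regions of the opposite direction (6% of all). By H3K27me3 a region touched 1, higher in OTX2low (7.1% of all).

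Lists of other genes give the setting. Over all protein-coding genes, 75% and 73.7% had an H3K4me3 peak in the OTX2high and OTX2low lists, and 25.8% and 17.7% an H3K27me3 peak in the lists so labelled. Of 19 single-copy relatives of the families, 17 had an H3K4me3 peak in each list, and 2 and 1 had an H3K27me3 peak in the lists labelled OTX2high and OTX2low. Of 182 genes of other repeated families, 37 and 36 had an H3K4me3 peak, and 109 and 101 an H3K27me3 peak. Their H3K27me3 regions did not share 1 direction. Of these genes, 12 had only regions higher in OTX2high (3.36% of all), 14 only regions of the opposite direction (7.1% of all) and 1 both (0.255% of all). By distinct region, 18 of 30 were higher in OTX2high (57.5% of all regions) and 12 in OTX2low, with a median log2 of 0.48 on the deposited scale. Direction was used in choosing the members' families, so the difference from the members tests nothing.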

How the data were processed

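Peak lists of 4 ChIP-seq libraries of D283 cells and 2 differential tables, 1 per mark, were analysed; the IgG libraries entered only through the authors' values. The submitters' processing notes name Bowtie2 2.3.3.1, the build GRCh38 and MACS2 2.1.1.20160309. Each library had its own peak call with a single IgG library as control, a q-value limit of 0.05 and at most 1 tag kept per position, per the file headers. How reads with several equal matches were treated is not given in the sources used here. The deposited peak lists hold pileup signal, -log10 p-values and q-values on the -log10 scale, and fold enrichment as a ratio over local background. Per the file headers, diffReps 1.55.6 compared OTX2high with OTX2low by a G-test on windows of 1000 bp in steps of 100 bp (H3K4me3) or 10000 bp in steps of 1000 bp (H3K27me3). The deposited tables hold normalized read signal, an enrichment ratio over IgG, a log2 ratio, a p-value and an adjusted p-value. These p-values compare 2 libraries, not conditions, and none is printed. The diffReps command names hg19, yet 10928 of 11022 H3K4me3 regions with at least 100 reads (99.1%) overlap a peak of the GRCh38 lists, so GRCh38 coordinates were used.

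Dividing normalized reads by the value of 1 read (0.798 and 1.25 for H3K4me3, 1.14 and 0.875 for H3K27me3, OTX2high first) gave whole numbers within 0.05 for 100% of values. A G-test on the recovered H3K4me3 reads, with adjustment over 663990 windows, called 21714 of 21714 regions, which the authors had already selected by that test. Intervals are exact conditional Clopper-Pearson intervals of 95% and cover counting error only; PCR reads are not independent molecules. A region without reads in one condition was set to a floor of 3 reads. The interval, read recovery and overlap steps were tested on simulated data. With 1 library per group no test between conditions was made. Named genes were, per family and list or table, the member with the highest peak, the members of the region with the most reads and of the region with the largest log2 ratio among those of at least 20 reads, and every member with a peak where 5 or fewer had one; other members named serve the account of a family and were chosen after their values were seen. The members and gene lists were chosen with earlier results of these data known. Tools were pandas 2.3.3, numpy 2.4.6, scipy 1.17.1 and matplotlib 3.10.9.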

Additional observations from a re-analysis of the deposited data

How the results depend on the processing

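Of the alternatives tried, which changed the gene window, the overlap, the thresholds on peaks and regions, the centring of the log2 ratio and the treatment of features shared with other genes, 64 values stayed within 1.5 times the count, or kept the direction of the median, as reported. When most of a region had to lie inside the window, members with H3K27me3 regions higher in OTX2high fell from 49 to 15; the regions over USP17L and FAM90A are longer than those genes' windows. Members with an H3K4me3 peak in the OTX2low list numbered 15 in place of 31 at a -log10 q of at least 5 and 17 at a fold of at least 4. With an adjusted p of at most 1e-5, 0 members had only H3K4me3 regions higher in OTX2high and 1 only regions higher in OTX2low. Log2 ratios recentred on the median of all regions left 1 member, PRAMEF4, with only H3K4me3 regions higher in OTX2high. Recentring reversed H3K27me3: 0 members higher in OTX2high, 48 higher in OTX2low and a median log2 of -0.11, the table's median being 0.48. For both marks the median used covers called regions only and need not mark no change. With H3K27me3 conditions taken from the sample labels, an alternative added after seeing the data, OTX2high was the higher condition at 0 members and OTX2low at 49, and the median was -0.37. The H3K4me3 G-test on recovered reads, also added, kept all 24 regions. No paired analysis was possible because each condition has 1 library per mark. Which copy a read came from limits every value for a single gene.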

Other observations

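The gene table also holds 82 pseudogene copies of these families. Of 46 DUX4 pseudogenes, 29 had an H3K4me3 peak in the OTX2high list and 30 in the OTX2low list. Only H3K4me3 regions higher in OTX2low were at 27 (6% of all protein-coding genes), and none had only regions higher in OTX2high (41.7% of all). Many of these copies lie in close repeats on chromosomes 4 and 10 with overlapping windows. Neighbours there can share regions and reads, so the 27 are not independent observations. The H3K27me3 regions of DUX4 pseudogenes were higher in OTX2high at 2 and higher in OTX2low at 4. All 4 USP17L pseudogenes, which lie inside the chromosome 4 array, had H3K27me3 regions higher in OTX2high, the 2 regions given above for that array. The PRAMEF pseudogenes had H3K27me3 peaks at 8 of 8 copies in both lists and no H3K4me3 peak. In NBPF, 2 of 9 pseudogenes had an H3K4me3 peak of at least 10-fold in both lists.

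The authors' deposited tables of clustered differential regions name 3 clusters at members, among 1964 clusters for H3K4me3 and 61 for H3K27me3. The H3K4me3 clusters were at NBPF1, with 1 region of each direction, and across FAM90A24 and FAM90A12, with 2 regions higher in OTX2low. The H3K27me3 cluster was at NBPF12, with 3 regions higher in OTX2high. The authors' adjusted p was above 0.05 for this cluster and below it for the H3K4me3 clusters.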
